A study of Mus musculus with 12 samples.

Results

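The genes described here encode nucleolar proteins, factors that process ribosomal RNA (rRNA) and components of RNA polymerase I in mouse bone marrow cells. The list held 47 gene symbols, each matched through the GENCODE M21 names to 1 gene identifier of the deposited count tables, out of 41388 genes per table. All 47 had enough counts to be tested, among 13030 genes tested in all. They comprised 5 genes of RNA polymerase I and its factors, 3 of the box C/D and 4 of the box H/ACA small nucleolar ribonucleoproteins, 5 nucleolar scaffold and regulatory proteins, 14 factors of the small subunit and 16 of the large subunit.

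Poly(A)-selected RNA was counted per gene in 12 libraries, 3 in each of 4 groups, from primary bone marrow cells of C57BL/6 mice. The flox genotype is named for floxed Asxl2, which encodes a chromatin regulator. The other genotype was labelled LysM Cre positive (KO), and LysM Cre is driven from the lysozyme gene Lyz2 of myeloid cells. Cells were grown for 5 days, replated for 2 days in medium with 2% M-CSF, the growth factor of macrophages. RANKL, a cytokine of the TNF family that induces osteoclasts, was added at 50 ng/ml to the osteoclast cultures (flox_OC and KO_OC) and left out of the macrophage cultures (flox_BMM and KO_BMM). No age was given for the mice. No group carried Cre with intact Asxl2, so effects of Cre and of the loss of Asxl2 cannot be told apart. Nothing in the labels ties a library to an animal or a culture. The p-values therefore reflect the spread among these libraries alone, and that spread may be technical.

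Ribosomes are built in the nucleolus. RNA polymerase I transcribes a long precursor rRNA, small nucleolar ribonucleoproteins guide its methylation and pseudouridylation, and separate sets of assembly factors cut and fold it into the small (40S) and large (60S) subunits. The genes for these factors are often expressed together when cells grow, and many are known targets of the transcription factor MYC. Osteoclasts are large, multinucleate cells that make much protein, and RANKL starts their differentiation from macrophages.

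Levels are given as CPM, each count divided by the library total times its TMM factor and scaled alike in all libraries, and group values are means ± SD of n = 3 libraries. Each change is an edgeR log2 fold change followed by its standard error (SE), and a gene was called at a Benjamini-Hochberg adjusted p under 0.05 over all 13030 genes. The libraries held 18489873 to 21667237 counts. Asxl2 itself stood at 93.2 ± 3.01 CPM in flox_BMM and 15.1 ± 0.265 CPM in KO_BMM, and at 73.4 ± 2.27 CPM in flox_OC and 13.7 ± 1.24 CPM in KO_OC, lower in KO in both (edgeR adjusted p = 1.34e-38 and 3.11e-36). The biological coefficient of variation was 4.05% within flox_BMM and 1.85% to 1.96% within the other groups. Library 1 of flox_BMM was the highest of its group for 41 of the 47 genes, by a median log2 difference of 0.13 from the other libraries of the group, and library 3 was the lowest for 31. For the 47 genes as a whole, the numbers called higher or lower in comparisons that use this group are given with and without library 1. Counts of changes over 2-fold, of overlap and of calls in further gene lists are given with all libraries only.

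Cell type markers moved with the groups. The 9 macrophage markers summed to 31947 to 33009 CPM in flox_BMM, 28319 to 29069.6 in KO_BMM, 15599 to 16006 in flox_OC and 16607 to 16842 in KO_OC. This sum includes Lyz2, from which LysM Cre is driven, and the part of Cre in its genotype differences was not tested. The 10 osteoclast markers summed to 234 to 243 CPM in flox_BMM, 206 to 210.1 in KO_BMM, 744 to 765 in flox_OC and 379.7 to 397 in KO_OC, with Oscar and Calcr at or near 0 in every library. Of the 8 tested, 7 were called higher and 1, Itgb3, lower with RANKL in each genotype. Of all tested genes, 37.0% were called higher and 37.8% lower in flox cells, and 35.5% and 35.0% in KO cells. By genotype, 7 of the 8 osteoclast markers were called lower in KO and none higher in OC, where 19.9% and 21.4% of all tested genes were. In BMM 4 were called lower and 2, Ctsk and Nfatc1, higher, against 20.6% and 19.3% of all tested genes. Stromal, neutrophil, megakaryocyte, dendritic cell and B cell markers summed to less in KO in both conditions. The 10 stromal and osteoblast markers summed to 204 to 222 CPM in flox_BMM and 64.3 to 73.1 in KO_BMM, and to 172 to 174 in flox_OC and 51.9 to 61.9 in KO_OC. The 10 neutrophil markers summed to 78.8 to 83.3 CPM in flox_BMM and 26.1 to 28.7 in KO_BMM, and to 34.4 to 36.6 in flox_OC and 10.5 to 12.3 in KO_OC, with Ly6g at 0 throughout. The 5 megakaryocyte markers, mainly Pf4, summed to 344 to 408 CPM in flox_BMM and 48.0 to 52.2 in KO_BMM, and to 134 to 141 in flox_OC and 15.2 to 16.2 in KO_OC. Dendritic cell markers (7 genes) summed to 169 to 178 CPM in flox_BMM, 129 to 147 in KO_BMM, 165 to 176 in flox_OC and 149 to 154 in KO_OC. B cell markers summed to 25.8 to 27.6 CPM in flox_BMM and 16.8 to 18.5 in KO_BMM, and to 11.3 to 12.7 in flox_OC and 7.68 to 7.82 in KO_OC. T and NK cell, erythroid, mast cell and basophil markers summed to at most 4.95 CPM in any library. The part of these cells in the results below was not tested. In bulk RNA, fewer cells of a type and less RNA per cell cannot be told apart.

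RANKL raised every one of the 47 genes in both genotypes. In flox cells 47 were called higher, where 37.0% of all tested genes were, and 0 lower, where 37.8% were, by edgeR, by DESeq2 and at an unadjusted p under 0.05, and the median log2 fold change was 1.25, against -0.0036 over all tested genes. The smallest rise was that of Imp4 (0.56) and the largest that of Dkc1 (2.06). In KO cells 47 were again called higher, against 35.5% of all tested genes, and 0 lower, against 35.0%, by the same 3 criteria, with a median of 1.22 against 0.0017 and the same genes at the ends, Imp4 (0.44) and Dkc1 (2.05). Changes of over 2-fold were called for 34 of the genes in flox cells, where 6.87% of all tested genes passed that mark, and for 28 in KO cells, where 6.11% did. The 28 were all among the 34, and the other 6 were Bop1, Ebna1bp2, Nip7, Nop14, Polr1e and Wdr74.

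The summed level of the 47 genes gives the size of the shift, weighted toward the most abundant genes. It was 3378, 3129.7 and 3053 CPM in the libraries of flox_BMM and 7714, 7838 and 7852 CPM in those of flox_OC, a 2.45-fold difference of the means. In KO cells it was 3033, 3057 and 2997 CPM without RANKL and 6921, 6941 and 7034 CPM with it, a 2.30-fold difference. The nucleolar scaffold and regulatory genes held a mean of 3332 of the 7802 CPM in flox_OC. Sums by role rose in flox cells by 1.79-fold (RNA polymerase I and its factors) to 3.27-fold (box H/ACA). The OC libraries lay above the BMM libraries in both genotypes, for the sum and for each of the 47 genes. Of all tested genes, 37.3% in flox and 36.9% in KO cells had every OC library above every BMM library. Within OC the 3 KO sums lay below the 3 flox sums, at a ratio of means of 0.893.

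**Figure D1:**
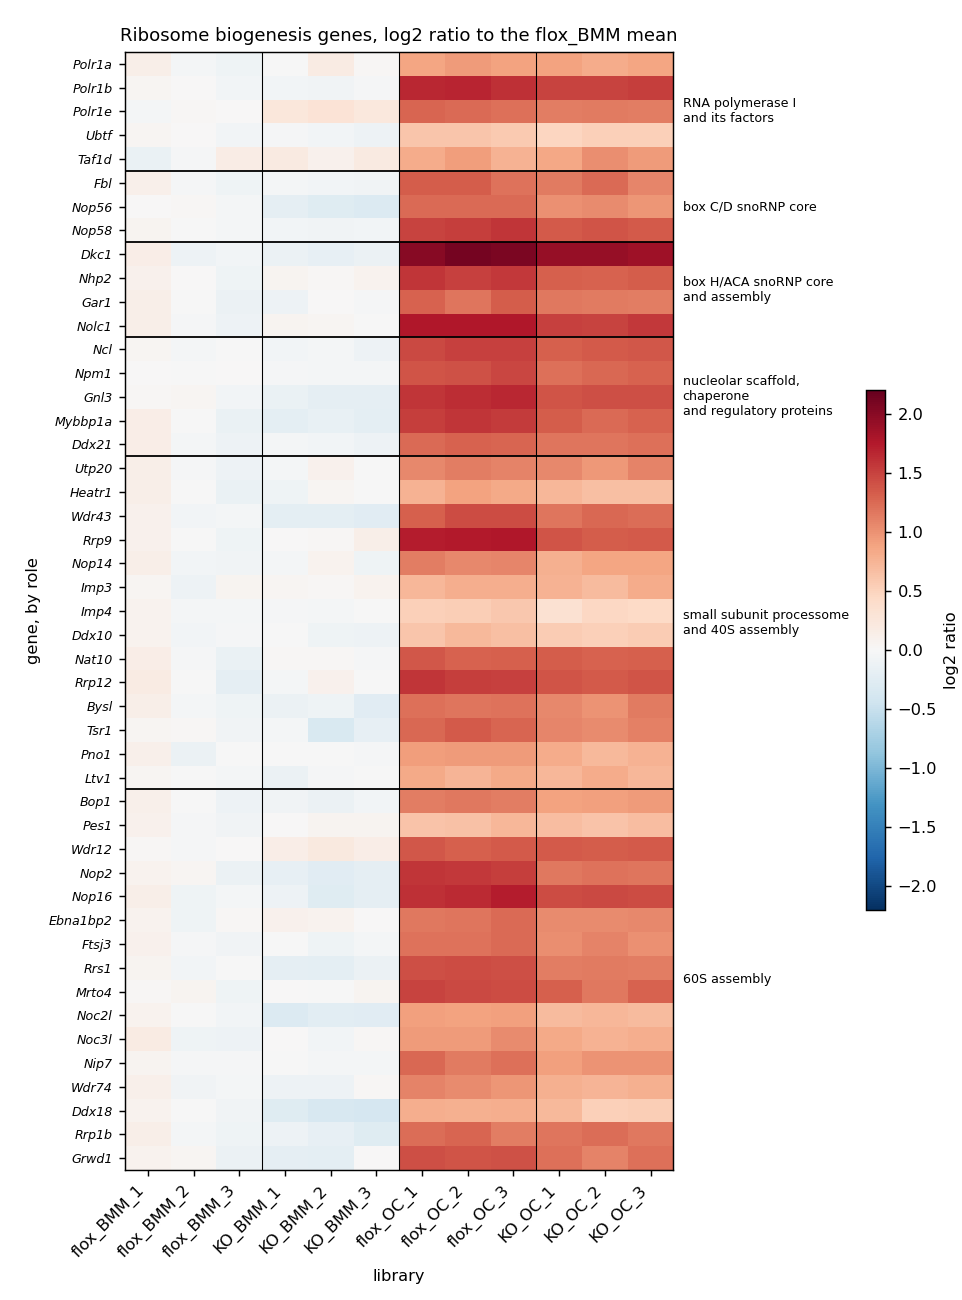
Level of each of the 47 genes (rows, by role) in each of the 12 libraries (columns), as the log2 ratio to the mean of flox_BMM, with red for higher and blue for lower. The 6 OC columns are red in all 47 rows, and for most genes the 3 KO_OC columns are paler than the 3 flox_OC columns.

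Scaling by library size alone moved the median of all tested genes by 0.17 in flox cells and 0.13 in KO cells on the log2 scale. Under that scaling the median of the 47 genes was 1.42 in flox and 1.36 in KO cells, and 47 genes were called higher in each genotype. Relative to the median of all tested genes it was 1.26 and 1.22. Scaling shifts all genes by nearly the same amount, so these relative values could hardly change and are no check of the scaling. Among all genes called, that scaling put 62.9% higher in flox cells and 63.5% in KO cells, against 49.5% and 50.4% with TMM factors. Leaving out library 1 of flox_BMM left 47 genes called in flox cells, with a median of 1.28.

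**Figure D2:**
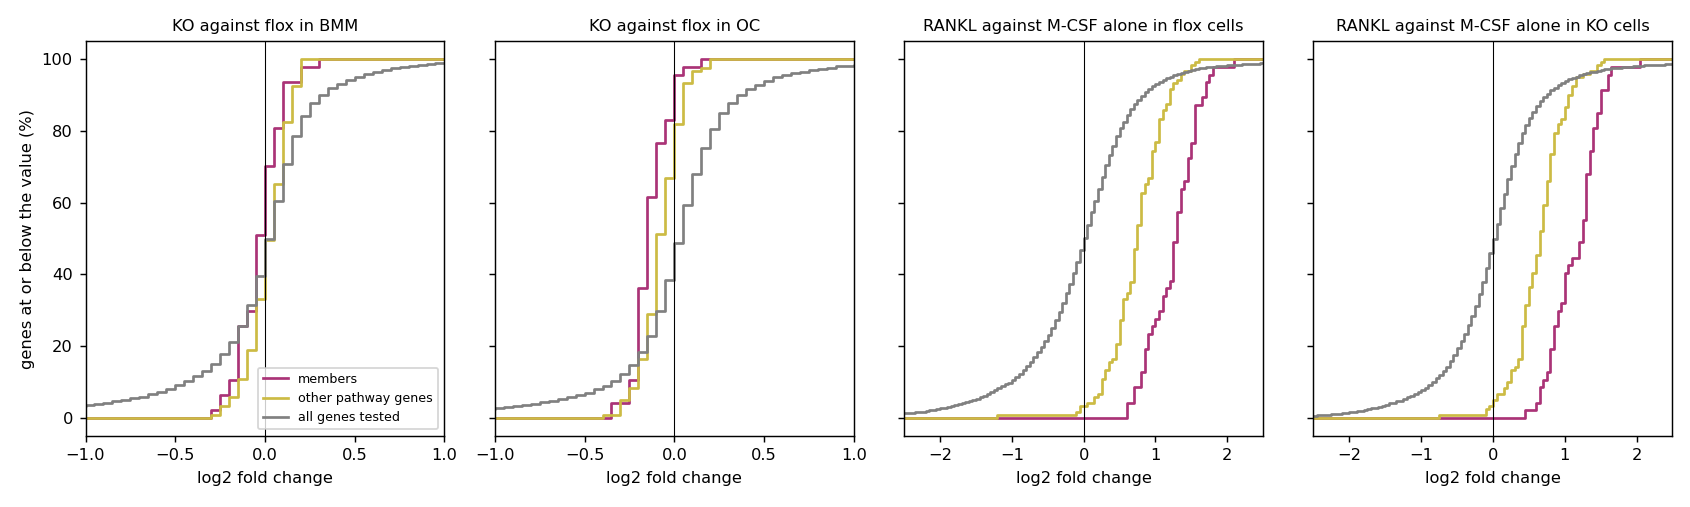
Cumulative distribution of log2 fold changes (horizontal axis) as the percent of genes at or below each value (vertical axis), for the 47 genes, the 121 other genes of the pathway and all 13030 tested genes, in 4 comparisons. With RANKL the curve of the 47 genes lies to the right of that of all genes over most of its length in both genotypes, with medians of 1.25 and 1.22, and for KO against flox in OC its middle lies to the left, at a median of -0.16.

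RNA polymerase I and its factors showed the smallest median rise with RANKL of the 6 role groups (0.89 in flox and 0.79 in KO cells). Ubtf, which encodes the upstream binding factor of ribosomal DNA, had the highest mean CPM of the 5. It stood at 162, 159.7 and 152 CPM in flox_BMM, 154, 151 and 147 in KO_BMM, 239.9, 241 and 236 in flox_OC and 219, 227 and 228 in KO_OC. The OC libraries were all above the BMM libraries, and KO_OC was below flox_OC without overlap, while the genotypes overlapped in BMM. Its rise with RANKL was 0.60 (SE 0.031, edgeR adjusted p = 6.5e-23) in flox and 0.58 (SE 0.031, edgeR adjusted p = 3.88e-22) in KO cells. The difference of -0.09 by genotype in OC (SE 0.030, edgeR adjusted p = 0.0139) did not pass without library 1 of KO_OC or library 2 of flox_OC, where it was -0.07 and -0.08.

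Polr1b encodes the second largest subunit of the polymerase and rose most in this group. Its levels were 27.1, 26.4 and 25.1 CPM in flox_BMM, 25.0, 24.9 and 25.7 in KO_BMM, 83.1, 83.8 and 80.2 in flox_OC and 73.6, 73.1 and 75.0 in KO_OC. Each OC library was thus far above each BMM library, with KO_OC below flox_OC. Its log2 fold change with RANKL was 1.65 (SE 0.044, edgeR adjusted p = 1.94e-34) in flox and 1.55 (SE 0.045, edgeR adjusted p = 5.57e-33) in KO cells, and its genotype difference in OC was -0.16 (SE 0.037, edgeR adjusted p = 0.000459). Polr1a, which encodes the largest subunit, rose by 0.89 and 0.79, and Taf1d, a subunit of the selectivity factor SL1, by 0.83 and 0.78. Neither passed the genotype test in BMM or OC with all libraries. In BMM, Polr1a was called higher in KO without library 1 of flox_BMM (0.14, edgeR adjusted p = 0.00464). Taf1d was called higher there without library 3 of flox_BMM (0.25, edgeR adjusted p = 0.017) and with library size alone (0.20, edgeR adjusted p = 0.0428).

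Polr1e, which encodes a subunit known as PAF53, was 1 of 2 genes called higher in KO in BMM. It stood at 7.32, 7.63 and 7.58 CPM in flox_BMM, 8.91, 9.30 and 8.82 in KO_BMM, 18.1, 17.8 and 17.4 in flox_OC and 16.4, 16.5 and 16.3 in KO_OC. The KO libraries were the higher ones in BMM and the lower ones in OC, without overlap in either. The genotype difference was 0.26 in BMM (SE 0.090, edgeR adjusted p = 0.0171) and -0.12 in OC (SE 0.065, edgeR adjusted p = 0.142), the latter not passing. The call in BMM was lost without library 2 of KO_BMM (0.24, edgeR adjusted p = 0.064) and with DESeq2 (0.26, adjusted p = 0.061).

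**Figure D3:**
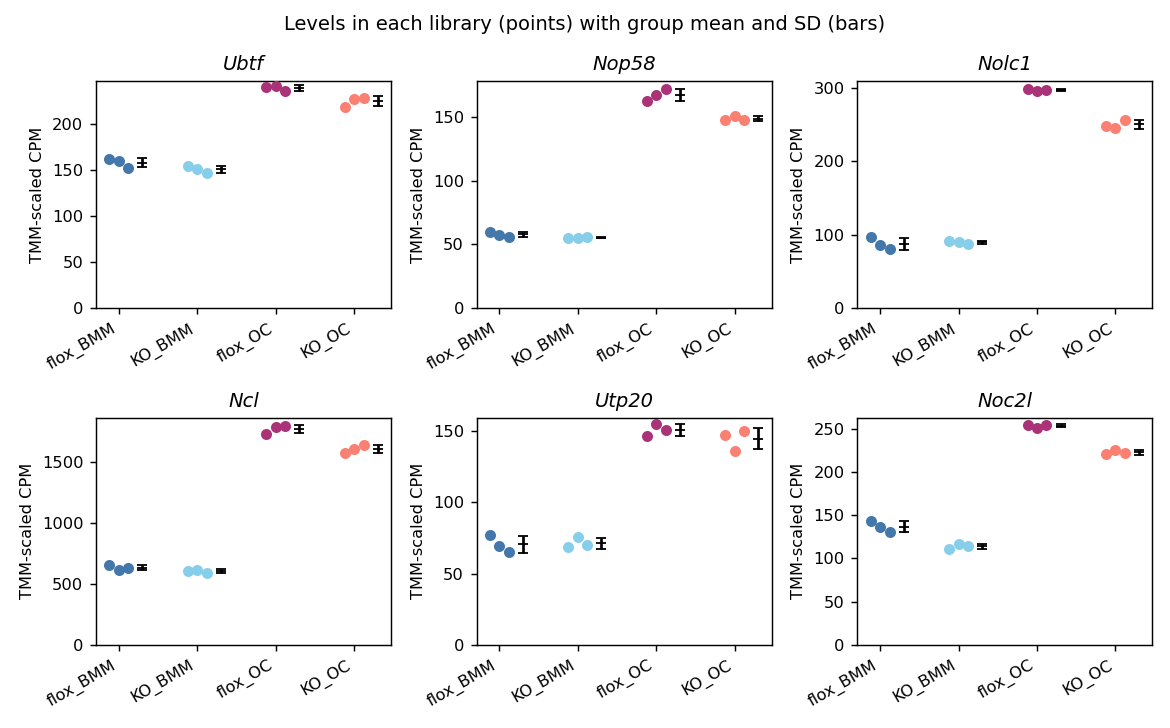
TMM-scaled CPM (vertical axes, from 0) of the gene with the highest mean level over all libraries in each role group, with 1 point per library in each of the 4 groups and the group mean and SD beside the points. Each of the 6 genes is higher in the OC groups than in the BMM groups, and for all but Utp20 the KO_OC points lie below the flox_OC points.

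The 3 genes of the box C/D core, whose particles methylate rRNA, rose with a median of 1.29 in flox and 1.27 in KO cells. All 3 were called lower in KO than in flox in OC, where 19.9% of all tested genes were. Nop58 levels were 59.99, 57.7 and 55.9 CPM in flox_BMM, 55.3, 54.8 and 55.7 in KO_BMM, 162, 167 and 172 in flox_OC and 148, 151 and 148 in KO_OC. The 4 groups fell into 2 tiers by RANKL, and in each tier KO lay below flox, by little in BMM. The rise was 1.53 (SE 0.036, edgeR adjusted p = 6.1e-37) in flox and 1.43 (SE 0.036, edgeR adjusted p = 2.17e-35) in KO cells. The genotype difference passed in OC (-0.17, SE 0.032, edgeR adjusted p = 1.8e-05) and not in BMM (-0.07, SE 0.041, edgeR adjusted p = 0.209).

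Nop56, the partner of Nop58 in the particle, was lower in KO in both conditions by about the same amount. Its levels were 67.2, 68.0 and 64.3 CPM in flox_BMM, 57.8, 55.1 and 53.7 in KO_BMM, 159, 159 and 158 in flox_OC and 133, 137 and 130.3 in KO_OC. Genotypes did not overlap in either condition. The difference was -0.26 in BMM (SE 0.040, edgeR adjusted p = 4.71e-07) and -0.25 in OC (SE 0.032, edgeR adjusted p = 8.66e-09), and the rise with RANKL was 1.25 in flox and 1.27 in KO cells. Fbl, the methyltransferase fibrillarin, rose from a mean of 18.1 to one of 44.1 CPM in flox cells. Its genotype difference in OC was -0.13 (edgeR adjusted p = 0.0343). That call was lost without any 1 of 4 OC libraries (numbers 1 and 2 of flox, 1 and 3 of KO), with values of -0.09 to -0.12. It was also lost with DESeq2 (-0.13, adjusted p = 0.105) and with no low-count filter (-0.12, edgeR adjusted p = 0.0596).

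Genes of the box H/ACA particle, which converts uridine in rRNA to pseudouridine, showed the largest median rise in flox cells (1.65), with 1.37 in KO cells. All 4 were called lower in KO in OC, against 19.9% of all tested genes. Dkc1 encodes dyskerin, the pseudouridine synthase, and had the largest rise of the 47 genes. It stood at 39.7, 33.2 and 34.5 CPM in flox_BMM, 32.5, 31.7 and 32.8 in KO_BMM, 144, 154 and 150.0 in flox_OC and 135, 135 and 131 in KO_OC. The OC libraries were thus about 4-fold above the BMM libraries, and KO was the lower genotype throughout. The log2 fold change with RANKL was 2.06 (SE 0.043, edgeR adjusted p = 1.67e-38) in flox and 2.05 (SE 0.044, edgeR adjusted p = 5.73e-38) in KO cells. Its genotype difference was -0.16 in OC (SE 0.036, edgeR adjusted p = 0.000286). In BMM it was -0.14 (SE 0.054, edgeR adjusted p = 0.0296), and this call was lost without library 1 of flox_BMM (-0.06, edgeR adjusted p = 0.46) and without any 1 library of KO_BMM (-0.13 to -0.15).

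Nolc1, which encodes the chaperone Nopp140 of these particles, had the highest CPM of the 4. It stood at 96.1, 85.7 and 80.7 CPM in flox_BMM, 91.4, 90.4 and 87.0 in KO_BMM, 298, 295 and 297 in flox_OC and 248, 245 and 257 in KO_OC. The genotypes overlapped in BMM and were clearly apart in OC. Without library 1 of flox_BMM, Nolc1 was called higher in KO in BMM (0.11, edgeR adjusted p = 0.0139). RANKL raised it by 1.76 (SE 0.038, edgeR adjusted p = 1.23e-32) in flox and 1.48 (SE 0.038, edgeR adjusted p = 5.58e-30) in KO cells, and the difference of these effects was -0.28 (SE 0.054, edgeR adjusted p = 0.000107). Nhp2, a core protein of the particle, showed the same size of difference. Its levels were 67.2, 63.4 and 59.4 CPM in flox_BMM, 66.2, 64.1 and 67.0 in KO_BMM, 189, 179 and 186 in flox_OC and 158, 156 and 159 in KO_OC. The genotypes were thus apart in OC, and in BMM they overlapped through library 1 of flox_BMM. Without that library Nhp2 was called higher in KO in BMM (0.11, edgeR adjusted p = 0.0425). Its rise was 1.54 in flox and 1.26 in KO cells, a difference of -0.28 (SE 0.053, edgeR adjusted p = 4.41e-05). Gar1, another core protein, rose by 1.27 and 1.18. Its genotype difference in OC (-0.13, edgeR adjusted p = 0.0161) was lost without library 1 or 3 of flox_OC or library 3 of KO_OC (-0.10 to -0.12). It was also lost with DESeq2 (-0.14, adjusted p = 0.0574).

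The nucleolar scaffold and regulatory proteins included Ncl, which encodes nucleolin and had the highest CPM of the list, also per kilobase. Ncl stood at 654, 615 and 634 CPM in flox_BMM, 606, 619 and 588 in KO_BMM, 1736, 1789 and 1797 in flox_OC and 1574, 1607 and 1641 in KO_OC. The genotypes overlapped in BMM and not in OC. It rose by 1.48 (SE 0.028, edgeR adjusted p = 5.01e-41) in flox and 1.41 (SE 0.028, edgeR adjusted p = 5.8e-40) in KO cells, and was lower in KO in OC by -0.14 (SE 0.027, edgeR adjusted p = 2.06e-05). The BMM difference of -0.07 (SE 0.028, edgeR adjusted p = 0.0386) was lost under more than 10 of the alternatives, among them the fit with a replicate block (-0.07, edgeR adjusted p = 0.054) and the one without library 1 of flox_BMM (-0.04, edgeR adjusted p = 0.26).

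Gnl3 encodes nucleostemin, a nucleolar GTP-binding protein of proliferating cells. It stood at 45.1, 45.5 and 42.2 CPM in flox_BMM, 39.8, 38.7 and 38.6 in KO_BMM, 132, 136 and 139 in flox_OC and 115, 118 and 118 in KO_OC. KO was the lower genotype in both conditions, without overlap, and the OC libraries were above the BMM libraries in both genotypes. The rises were 1.61 (SE 0.038, edgeR adjusted p = 1.3e-36) and 1.58 (SE 0.039, edgeR adjusted p = 1.31e-35). The genotype differences were -0.18 in BMM (edgeR adjusted p = 0.00108) and -0.22 in OC (edgeR adjusted p = 4.91e-07). Npm1, the abundant histone and ribosome chaperone nucleophosmin, rose by 1.42 and 1.30 and was lower in KO in OC by -0.16. Npm1 has processed pseudogenes, and the file headers record no option to count multi-mapping reads, so its level is uncertain. Mybbp1a, a Myb-binding nucleolar protein, rose by 1.55 and 1.49 and was lower in KO in OC by -0.26. Ddx21, an RNA helicase of the nucleolus, rose by 1.28 and 1.26, and its genotype difference did not pass in OC (-0.08, edgeR adjusted p = 0.122) although the groups did not overlap. It passed when only the OC groups were fitted (-0.09, edgeR adjusted p = 0.000922). It also passed without library 1 or library 3 of flox_BMM (-0.09 in each, edgeR adjusted p = 0.00244 and 0.0188). Those libraries lie outside this comparison but share the spread of the model.

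The 14 genes of the small subunit processome and 40S assembly rose with a median of 1.09 in flox and 0.94 in KO cells. In OC 10 were called lower in KO, where 19.9% of all tested genes were. Utp20, a large scaffold protein of the processome, had the highest mean CPM over all libraries. It stood at 77.0, 69.3 and 65.3 CPM in flox_BMM, 68.5, 75.6 and 69.8 in KO_BMM, 146, 155 and 151 in flox_OC and 147, 136 and 150.1 in KO_OC. The OC libraries were above the BMM libraries, and the genotypes overlapped in both conditions. It rose by 1.09 (SE 0.048, edgeR adjusted p = 4.6e-17) and 1.02 (SE 0.047, edgeR adjusted p = 2.48e-16), and its genotype difference in OC was -0.06 (SE 0.043, edgeR adjusted p = 0.297).

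Rrp9, a protein of the U3 particle, differed most between genotypes. Its levels were 20.8, 19.2 and 18.1 CPM in flox_BMM, 19.5, 19.7 and 21.0 in KO_BMM, 64.3, 64.8 and 66.0 in flox_OC and 50.2, 48.7 and 49.3 in KO_OC. The genotypes overlapped in BMM, and in OC every KO library was well below every flox library. The genotype difference in OC was -0.40 (SE 0.042, edgeR adjusted p = 4.74e-11), the largest of the 47. RANKL raised the gene by 1.75 (SE 0.051, edgeR adjusted p = 4.55e-33) in flox and 1.30 (SE 0.052, edgeR adjusted p = 3.58e-27) in KO cells.

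Wdr43, a processome protein of the early particle, was among the 4 genes with the largest fall by genotype in BMM. It stood at 67.0, 60.1 and 61.0 CPM in flox_BMM, 53.8, 53.9 and 52.7 in KO_BMM, 157, 168 and 169 in flox_OC and 141, 151 and 146 in KO_OC. KO libraries were below flox libraries in both conditions. The difference was -0.23 in BMM (SE 0.045, edgeR adjusted p = 4.18e-05) and -0.17 in OC (SE 0.035, edgeR adjusted p = 6.67e-05). The other 11 genes of the group rose with RANKL in flox cells by 0.56 (Imp4, of the U3-associated Mpp10 complex) to 1.53 (Rrp12, an export factor). In OC, Nop14, Imp4, Ddx10, Heatr1, Rrp12, Bysl, Tsr1 and Pno1 were lower in KO by -0.12 to -0.25, and Imp3, Nat10 and Ltv1 did not pass (-0.02, -0.01 and -0.04). Nat10 encodes the acetyltransferase of the small subunit rRNA. The calls for Ddx10, Heatr1 and Bysl in OC were each lost without at least 1 OC library. That for Ddx10 was also lost with DESeq2 (-0.12, adjusted p = 0.0806) and with no low-count filter (-0.11, edgeR adjusted p = 0.0677). Tsr1 shares 32.3% of its exonic bases with Srr, and the counting ignored strand, so reads in the shared bases cannot be told from those of Srr.

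The 16 genes of 60S assembly rose with a median of 1.21 in flox and 1.04 in KO cells. In OC 13 were called lower in KO, against 19.9% of all tested genes. Noc2l, of a complex that moves the pre-60S particle through the nucleolus, had the highest mean CPM. Its levels were 144, 136 and 131 CPM in flox_BMM, 111, 116 and 115 in KO_BMM, 255, 251 and 255 in flox_OC and 221, 226 and 221 in KO_OC. KO was lower in both conditions without overlap. The genotype difference was -0.26 in BMM (SE 0.034, edgeR adjusted p = 6.42e-09) and -0.19 in OC (SE 0.030, edgeR adjusted p = 1.04e-06), and the rise with RANKL was 0.89 and 0.97. Noc2l shares 20.9% of its exonic bases with Samd11, and reads in those bases have the same limit as for Tsr1.

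Nop2 encodes an rRNA cytosine methyltransferase of the large subunit. It stood at 65.9, 64.4 and 56.7 CPM in flox_BMM, 55.3, 52.5 and 54.2 in KO_BMM, 186, 183 and 178 in flox_OC and 140.0, 143 and 141 in KO_OC. The KO libraries were the lower ones in both conditions, with the wider gap in OC. The difference was -0.21 in BMM (SE 0.044, edgeR adjusted p = 0.00012) and -0.37 in OC (SE 0.034, edgeR adjusted p = 9.75e-13).

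Rrs1, which helps to load the small 5S ribonucleoprotein in yeast, and Wdr74, whose yeast counterpart acts on early pre-60S particles, were the next largest falls in OC. Rrs1 stood at 30.2, 27.9 and 28.8 CPM in flox_BMM, 25.2, 24.9 and 26.5 in KO_BMM, 77.2, 78.3 and 77.0 in flox_OC and 63.1, 64.2 and 62.9 in KO_OC. Wdr74 stood at 27.5, 24.0 and 24.5 CPM in flox_BMM, 23.6, 23.6 and 25.8 in KO_BMM, 53.9, 51.9 and 49.9 in flox_OC and 43.4, 42.7 and 43.5 in KO_OC. In OC the genotypes were apart for both genes, and in BMM for Rrs1 but not for Wdr74. The OC differences were -0.29 for Rrs1 (SE 0.038, edgeR adjusted p = 1.21e-08) and -0.27 for Wdr74 (SE 0.047, edgeR adjusted p = 5.76e-06).

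Nop16, a nucleolar protein of the early pre-60S particle, rose strongly in both genotypes. Its levels were 25.6, 22.0 and 22.7 CPM in flox_BMM, 21.7, 19.6 and 20.5 in KO_BMM, 71.4, 72.9 and 77.9 in flox_OC and 63.2, 63.8 and 63.2 in KO_OC. All OC libraries were about 3-fold above the BMM libraries of their genotype, and KO was lower in both conditions without overlap. In BMM the genotype difference was -0.19 (edgeR adjusted p = 0.0151), and it did not pass without library 1 of flox_BMM (-0.11, edgeR adjusted p = 0.19) or library 2 of KO_BMM (-0.15, edgeR adjusted p = 0.092). The rises were 1.66 (SE 0.051, edgeR adjusted p = 3.31e-32) and 1.63 (SE 0.052, edgeR adjusted p = 4.98e-31).

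Ddx18, an RNA helicase, had the largest fall by genotype in BMM. It stood at 17.0, 15.8 and 15.2 CPM in flox_BMM, 13.3, 12.6 and 12.5 in KO_BMM, 27.9, 27.6 and 27.9 in flox_OC and 26.2, 23.1 and 23.3 in KO_OC. KO was lower in both conditions without overlap. The difference was -0.33 in BMM (SE 0.075, edgeR adjusted p = 0.000367) and -0.20 in OC (SE 0.057, edgeR adjusted p = 0.00396).

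The 3 genes of the PeBoW complex, which is needed to process the large subunit rRNA, differed in their genotype effects. Bop1 was lower in KO in OC (164 ± 2.01 against 140.4 ± 1.81 CPM, -0.23, edgeR adjusted p = 3.62e-07), whereas Pes1 (0.00, edgeR adjusted p = 0.979) and Wdr12 (edgeR adjusted p = 0.988) did not pass. Wdr12 stood at 19.2, 18.6 and 18.9 CPM in flox_BMM, 20.9, 21.9 and 20.8 in KO_BMM, 48.8, 47.2 and 48.3 in flox_OC and 48.4, 47.7 and 48.0 in KO_OC. KO was the higher genotype in BMM, and the genotypes overlapped in OC. The BMM difference of 0.17 (SE 0.060, edgeR adjusted p = 0.0232) was lost without library 2 of flox_BMM (0.16), without library 2 of KO_BMM (0.14) and with DESeq2 (0.16, adjusted p = 0.072). Of the other 60S genes, Ebna1bp2, Ftsj3, Mrto4, Noc3l, Nip7 and Grwd1 were lower in KO in OC by -0.15 to -0.25, and Rrp1b did not pass there (-0.02). Without library 3 of flox_OC the call for Noc3l was lost (-0.13, edgeR adjusted p = 0.062).

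Per kilobase of exon, which allows genes to be compared, mean levels in flox_OC ran from 174 CPM per kb for Ncl and 161 for Nhp2 down to 4.56 for Polr1e and 4.02 for Wdr12. In flox_BMM the range was 62.3 CPM per kb for Ncl to 1.58 for Wdr12. Spread within a group was widest in flox_BMM, where the median coefficient of variation over the 47 genes was 6.51%, and lay between 2.08% and 2.74% in the other groups.

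By genotype in OC, none of the 47 genes was called higher by edgeR, by DESeq2 or at an unadjusted p under 0.05, where edgeR called 21.4% of all tested genes higher, and 36 were called lower, where 19.9% were. The differences were small: the median was -0.16, against 0.006 over all tested genes, and the range was -0.40 (Rrp9) to 0.11 (Taf1d). KO libraries lay below flox libraries without overlap for 37 of the genes and above them for 0, where 24.7% and 26.6% of all tested genes did so. The 11 that did not pass were Ddx21, Imp3, Ltv1, Nat10, Pes1, Polr1a, Polr1e, Rrp1b, Taf1d, Utp20 and Wdr12. Against a least change of 1.2-fold 2 of the 47 genes, Rrp9 and Nop2, were called lower, where 6.13% of all tested genes were. Leaving out any 1 library gave 32 to 37 genes called lower, and DESeq2 with all libraries gave 33.

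In BMM the genotype effect on these genes was weak and mixed. The called genes were 2 higher, Polr1e and Wdr12, where 19.3% of all tested genes were called higher, and 14 lower, where 20.6% were called lower. The median was -0.05, against 0.0008 over all tested genes, and 31 genes did not pass. KO lay below flox without overlap for 14 genes and above it for 2, where 23.3% and 23.2% of all tested genes did so. The 14 genes called lower were Bysl, Ddx18, Dkc1, Gnl3, Mybbp1a, Ncl, Noc2l, Nop16, Nop2, Nop56, Rrp1b, Rrs1, Tsr1 and Wdr43. All of these but Rrp1b were also called lower in OC, 13 in all. The BMM calls depended on single libraries: without library 1 of flox_BMM 6 genes were higher and 8 lower, with a median of 0.0047 (10 of the 16 called genes kept their call), without library 2 of flox_BMM 1 was higher, and without library 2 of KO_BMM none was higher. Those lost without library 1 of flox_BMM were Bysl, Dkc1, Ncl, Nop16, Rrp1b and Tsr1, at -0.04 to -0.15. The 4 gained without that library, all higher in KO, were Nhp2, Nolc1, Pes1 and Polr1a, at 0.11 to 0.14. Mybbp1a stayed called there but at -0.11, against -0.20 with the library. With DESeq2 none was higher and 12 were lower, where 3 were higher and 17 lower at an unadjusted p under 0.05 in edgeR. Against a least change of 1.2-fold none was called in either direction.

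**Figure D4:**
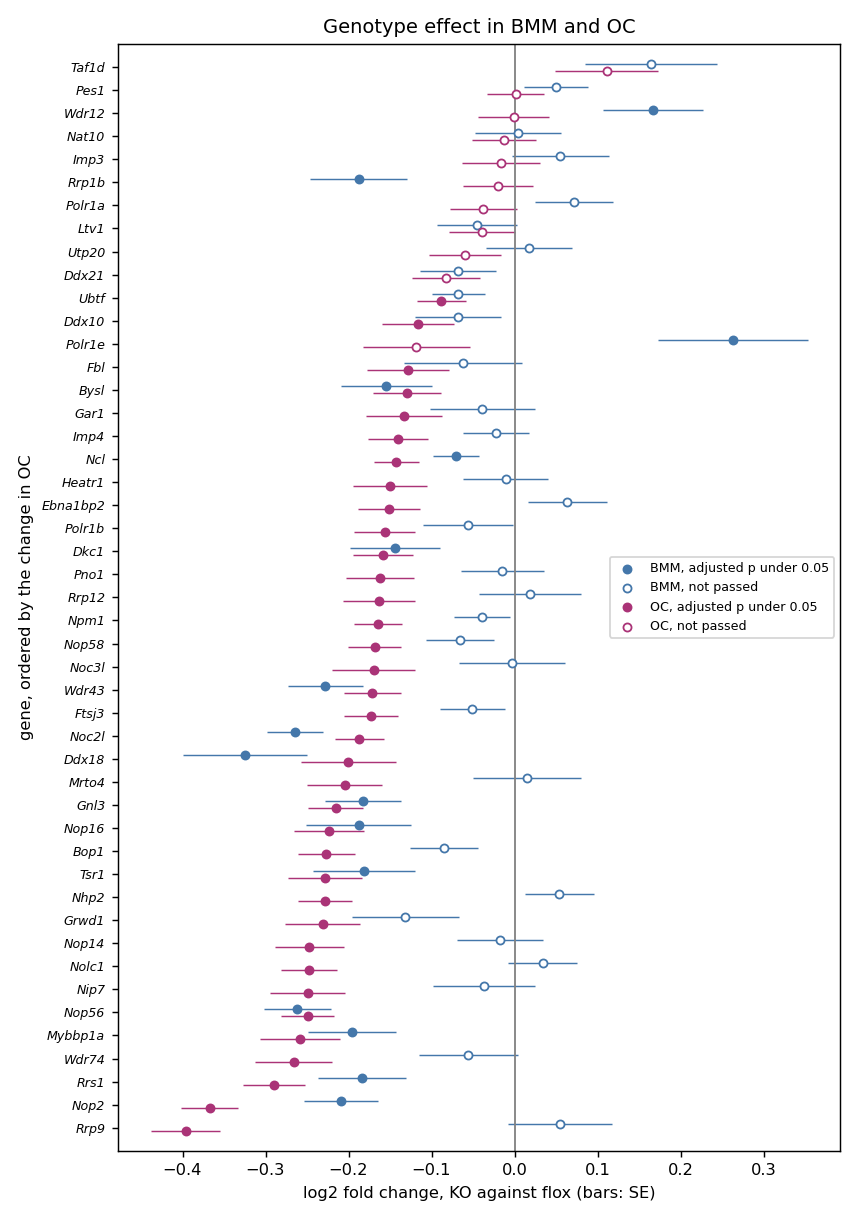
Log2 fold change of KO against flox (horizontal axis) with its SE for each of the 47 genes (vertical axis, ordered by the change in OC), in BMM (blue) and OC (purple), with filled points for an adjusted p under 0.05. In OC the points run from -0.40 for Rrp9 to 0.11 for Taf1d with 36 filled, and in BMM they scatter around 0 with 16 filled.

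The RANKL effect was smaller in KO than in flox cells for 40 of the 47 genes, where it was smaller for 6209 of all 13030 tested genes. By the test of the difference itself, none was called higher in KO by edgeR or DESeq2 (1, Rrp1b, was at an unadjusted p under 0.05), where edgeR called 12.3% of all tested genes, and 11 were called lower, where 9.54% were. They were Polr1e, Nhp2, Nolc1, Npm1, Rrp9, Nop14, Nop2, Ebna1bp2, Mrto4, Nip7 and Wdr74. The largest differences were those of Rrp9 (-0.45, SE 0.076, edgeR adjusted p = 7.26e-06), Polr1e (-0.38, SE 0.11, edgeR adjusted p = 0.00916) and Nhp2 (-0.28, SE 0.053, edgeR adjusted p = 4.41e-05). All but Polr1e were also called lower in KO in OC, a comparison that shares its libraries with this one. The median difference over the 47 genes was -0.10, against 0.01 over all tested genes. The number called lower was 24 without library 1 of flox_BMM. It was 7 without library 3 of flox_BMM, library 1 of KO_BMM, library 1 of flox_OC or library 1 of KO_OC, and 6 without library 3 of KO_BMM. Scaling by library size alone gave 20, DESeq2 gave 6 and a least change of 1.2-fold gave 1.

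**Figure D5:**
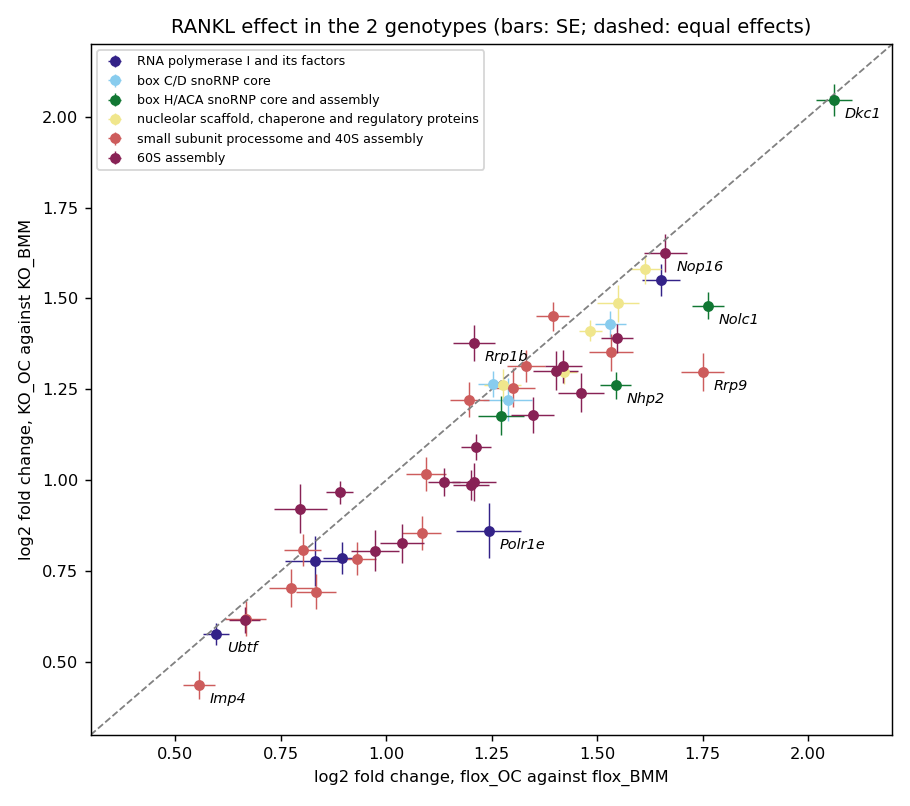
Log2 fold change with RANKL in flox cells (horizontal axis) and in KO cells (vertical axis) for each of the 47 genes, with SE bars and colours by role, and a dashed line where both effects are equal. All points lie above 0 on both axes, and 40 of the 47 lie below the line.

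Across the 47 genes the RANKL effects in the 2 genotypes, which share no library, had a Pearson correlation of 0.94 and a Spearman correlation of 0.93, against 0.92 and 0.90 over all tested genes. The genotype effects in BMM and OC had correlations of 0.43 and 0.40 over the 47 genes, against 0.66 and 0.49 over all tested genes. These are descriptions across genes, which are not independent replicates.

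The rest of the pathway was read from 121 further genes of the same roles, among them the other polymerase I subunits, processome proteins, 60S factors and exosome subunits. With RANKL 114 were called higher and 1 lower in flox cells (median 0.72), against 37.0% and 37.8% of all tested genes. In KO cells 112 were higher and 1 lower (median 0.63), against 35.5% and 35.0%. In OC 2 were higher and 55 lower in KO (median -0.10), where 21.4% and 19.9% of all tested genes were called. In BMM 14 were higher and 11 lower (median 0.01), which is 11.6% and 9.09% of them, below the 19.3% and 20.6% of all tested genes. Nle1, a 60S factor, rose from 13.7 ± 0.466 to 41.3 ± 0.967 CPM in flox cells (1.60, SE 0.059, edgeR adjusted p = 1.33e-28), and Utp4, a processome protein, from 28.2 ± 2.85 to 81.0 ± 3.20 CPM (1.52, SE 0.051, edgeR adjusted p = 3.75e-28). Ppan, another 60S factor, rose most in KO cells, from 28.7 ± 1.43 to 81.4 ± 1.75 CPM (2.83-fold, edgeR adjusted p = 1.54e-31), and was lower in KO in BMM (-0.27, edgeR adjusted p = 4.98e-05). In OC the helicase gene Ddx27 fell by genotype from 123 ± 2.91 to 96.7 ± 2.49 CPM (-0.35, SE 0.034, edgeR adjusted p = 5.19e-12).

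Utp14b, a retrogene copy of Utp14a with roles known in mouse germ cells, was the 1 gene of the 121 called lower with RANKL. It stood at 23.4, 24.1 and 22.7 CPM in flox_BMM, 19.3, 18.9 and 18.4 in KO_BMM, 11.0, 9.64 and 9.02 in flox_OC and 11.2, 11.2 and 10.7 in KO_OC. The OC libraries were thus below the BMM libraries in both genotypes. The falls were -1.24 (SE 0.072, edgeR adjusted p = 8.26e-21) in flox and -0.77 (SE 0.073, edgeR adjusted p = 3.05e-13) in KO cells. Utp14b lies in the Acsl3 locus and shares 3.18% of its exonic bases with it.

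Myc, which encodes a transcription factor with many ribosome biogenesis genes among its known targets, moved in the same direction as the 47 genes in OC. It stood at 84.8, 69.9 and 64.8 CPM in flox_BMM, 73.7, 71.3 and 68.8 in KO_BMM, 315, 302 and 312 in flox_OC and 250.3, 270.4 and 249 in KO_OC. The genotypes overlapped in BMM and were apart in OC, with KO lower. Its rise with RANKL was 2.08 (SE 0.077, edgeR adjusted p = 1.4e-09) in flox and 1.85 (SE 0.077, edgeR adjusted p = 4.76e-09) in KO cells. The genotype difference was -0.27 in OC (SE 0.067, edgeR adjusted p = 0.00918) and -0.04 in BMM (edgeR adjusted p = 0.778), and the difference of the RANKL effects did not pass (-0.23, SE 0.11, edgeR adjusted p = 0.185). The part of Myc in the levels of the 47 genes was not tested.

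The sequence CACGTG, an E-box bound by MYC with its partner MAX, was searched in promoter windows from 250 bases before to 50 after the RefSeq start (build GRCm38.p6). The motif reads the same on both strands. It occurred for 10 of the 42 listed genes in the promoter table (23.8%), for 1148 of 9623 tested genes (11.9%) and for 2187 of 27025 genes in the table (8.09%). Among the other genes of the pathway the motif occurred for 20 of 98 (20.4%). The windows of Rrs1, Fbl, Npm1, Bop1 and Rrp12 were not used here. The 10 were Mybbp1a, Nop2, Grwd1, Wdr43, Tsr1, Utp20, Pno1, Ltv1, Pes1 and Imp4, and their rises with RANKL in flox cells ran from 0.56 to 1.55. The 4 with the largest rise are printed to place the motif (in capitals) in its context, each 5′ to 3′ on the strand of the gene. The windows are chr11:72441355-72441376 (plus strand) for Mybbp1a, chr6:125131633-125131882 (plus strand) for Nop2, chr7:45830740-45830767 (minus strand) for Grwd1 and chr17:71616220-71616249 (plus strand) for Wdr43. The motif begins 41, 35 and 18 bases after the start in Mybbp1a, Grwd1 and Wdr43, and 60 bases before it in Nop2.
Mybbp1a: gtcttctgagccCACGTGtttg
Nop2: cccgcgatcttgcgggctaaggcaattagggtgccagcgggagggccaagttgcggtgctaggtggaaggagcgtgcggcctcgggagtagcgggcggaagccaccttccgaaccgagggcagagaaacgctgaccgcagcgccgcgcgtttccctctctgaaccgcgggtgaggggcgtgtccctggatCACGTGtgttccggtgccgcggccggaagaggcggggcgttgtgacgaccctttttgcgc
Grwd1: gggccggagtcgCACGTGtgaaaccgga
Wdr43: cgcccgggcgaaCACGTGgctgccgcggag
A match describes these letters and is not evidence of binding.

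Several of the 47 genes also carry small nucleolar RNA genes inside their bounds, on the same strand in GENCODE M21. These were Nop56 with 5, Nop58 with 4, Gnl3, Ncl and Wdr43 with 3 each, Tsr1 with 2 and Dkc1 with 1, which makes 7 of 47 genes (14.9%), against 221 of 13030 tested genes (1.7%). The 7 host genes rose with RANKL in flox cells by 1.25 to 2.06, and all 7 were called lower in KO in OC, as were 36 of all 47 genes and 19.9% of all tested genes. In BMM all but Nop58 were called lower, as were 14 of the 47 and 20.6% of all tested genes, and the calls for Dkc1, Ncl and Tsr1 were lost without library 1 of flox_BMM.

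Mitosis genes and DNA replication genes were read beside the 47 genes. The 12 mitosis genes summed to 1576 to 1764 CPM in flox_BMM, 2721 to 2846 in KO_BMM, 2498 to 2536 in flox_OC and 3123 to 3202 in KO_OC. All 12 were called higher in KO in BMM and in OC, with medians of 0.78 and 0.34, where 19.3% and 21.4% of all tested genes were. With RANKL 12 were called higher in flox and 10 in KO cells, against 37.0% and 35.5% of all tested genes. Of 12 DNA replication genes, 1 was higher and 5 were lower in KO in OC, and 3 were higher and 5 lower in BMM, with a median of -0.04 in each. Of all tested genes, 21.4% were called higher and 19.9% lower in OC, and 19.3% and 20.6% in BMM. The part of the cell cycle in the levels of the 47 genes was not tested.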

How the data were processed

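Each deposited file holds raw read counts for the genes, and no normalization step is recorded for them. The submitters' processing notes name STAR 2.0.4b and the build GRCm38. The file headers give featureCounts 1.4.5-p1 over Ensembl release 76 exons with strand setting 0, which ignores strand, and show no option to count multi-mapping reads. Genes with near-identical copies may be undercounted.

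Groups came from the sample titles and genotype labels. Identifiers without a symbol (1134) held 0.136% of the counts and stayed in the totals. Testing used the quasi-likelihood F test of edgeR 4.0.16 in R 4.3.3. TMM factors, filterByExpr with its defaults and robust fits were applied to the 12 libraries together, with a mean for each of 4 groups, and 5 comparisons were drawn from that model. Each SE is derived from the F statistic and the log2 fold change. The code was tested on simulated data. A count of 0 allows up to 3 counts, which is 0.138 to 0.162 CPM in a library, by counting error alone.

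Members and lists were chosen with earlier results of these data known, so no list was tested. For each comparison the text names up to 4 called members per direction with the largest change (up to 3 for the difference of the RANKL effects), among those reaching 5 CPM in either group. It also names the member with the highest mean CPM in each role and up to 2 called genes of the other pathway lists. Of those lists, Riok2 and Exosc6 were not used here. Ribosomal protein and RNA polymerase III genes were added later. Alternatives were RLE factors, library size alone, DESeq2 1.42.0, no low-count filter, a least change of 1.2-fold, a replicate block, only the groups compared, no members sharing over 10% of exonic bases, and each library left out.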

Additional observations from a re-analysis of the deposited data

Results flagged for a closer look

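The RANKL effect differed between KO and flox cells, by the edgeR test of the difference itself, for 11 of the 47 genes, all with a smaller rise in KO. Of all tested genes, 9.54% were called lower and 12.3% higher by this test. The log2 differences, KO minus flox, were -0.45 for Rrp9, -0.38 for Polr1e, -0.28 for Nhp2, -0.28 for Nolc1, -0.23 for Nop14, -0.22 for Mrto4, -0.22 for Ebna1bp2, -0.21 for Nip7, -0.21 for Wdr74, -0.16 for Nop2 and -0.13 for Npm1. The calls for Rrp9, Polr1e, Nhp2, Nolc1 and Ebna1bp2 held with each library left out and with DESeq2, and the other 6 were lost under at least 1 of these.

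Among the named genes of the wider pathway, 2 differed in the same test. Polr2l, a small subunit shared by the RNA polymerases, rose less in KO by -0.63 (SE 0.20, edgeR adjusted p = 0.0191), at levels of only 2.86 ± 0.513 CPM in flox_BMM and 6.05 ± 0.374 CPM in flox_OC. Utp14b fell less in KO, by 0.46 (SE 0.10, edgeR adjusted p = 0.000701).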

How the results depend on the processing

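No called member changed direction under any alternative run, but the BMM median ran from -0.073 to 0.0047 with 1 library left out, and so changed sign without library 1 of flox_BMM, where 11 members changed sign. With library size alone 5 members changed sign in BMM, 1 in OC and 3 in the difference, none of them called. The 47 genes were called higher with RANKL in both genotypes under each of them. By genotype in BMM, genes called higher numbered 2, and 0 with DESeq2 or a least change of 1.2-fold (0 to 6 with 1 library left out). Genes called lower there numbered 14, and 0 with the 1.2-fold limit (8 to 17 with 1 library left out). In OC, 36 were lower, and 2 with the 1.2-fold limit (32 to 37 with 1 library left out). The median in OC was -0.15 with no low-count filter, and -0.18 to -0.15 with 1 library left out. The RANKL medians were 1.42 in flox and 1.36 in KO cells with library size alone, 1.21 in KO cells with no filter, and 1.18 to 1.23 in KO cells with 1 library left out. For the difference of the RANKL effects, 11 were lower, and 20 with library size alone, 6 with DESeq2, 1 with the 1.2-fold limit, and 6 to 24 lower and 0 to 1 higher with 1 library left out. Library size alone put 59.9% of the genes called by genotype in BMM higher (48.3% with TMM factors) and 43.3% of those called for the difference (56.4%). The cause of these shifts was not tested. No pairing by replicate number was seen: deviations of same-numbered libraries had correlations of -0.035 to 0.040 in 18 pairs, against -0.055 to 0.046 for other numbers. Such values cannot show whether libraries share an animal or a culture. With the replicate as a block, Ncl in BMM (-0.07) was the only member whose call changed. The least change of 1.2-fold was the setting that most reduced the calls by genotype. With 3 libraries a group, most genotype differences of the members were under 1.2-fold.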

Other observations

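RNA of the genes for the ribosomal proteins themselves moved in the same direction as the 47 genes with RANKL and by genotype in OC, with smaller medians. These genes were picked by name after values of these data had been seen. Of 80 cytosolic ribosomal protein genes tested, 77 were called higher with RANKL in flox cells (median 0.56) and 77 in KO cells (median 0.42). Of all tested genes, 37.0% and 35.5% were. In OC 45 were lower and 2 higher in KO (median -0.14), where 19.9% and 21.4% of all tested genes were. In BMM 12 were lower and 4 higher (median -0.0093), smaller shares than the 20.6% and 19.3% of all tested genes. Their summed level was 7545 to 7994 CPM in flox_BMM and 10935 to 11308 CPM in flox_OC. Many have processed pseudogenes, so their levels are uncertain.

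RNA polymerase III, which transcribes 5S rRNA and tRNA genes, showed smaller and mixed changes. Of 10 subunit genes, 9 were higher and 1 lower with RANKL in flox cells (median 0.29), and 8 higher and 1 lower in KO cells (median 0.31). Of all tested genes, 37.0% were called higher and 37.8% lower in flox cells, and 35.5% and 35.0% in KO cells. Polr3gl and Polr3g encode alternative forms of 1 subunit and moved in opposite directions with RANKL in flox cells, by -0.90 and 0.98.

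Among the partners of MYC, Mxd1, which encodes an antagonist of MYC at E-boxes, stood out by genotype in OC and was named after its values were seen. It stood at 15.4, 18.04 and 18.7 CPM in flox_BMM, 16.8, 15.9 and 17.6 in KO_BMM, 25.4, 28.0 and 26.9 in flox_OC and 14.3, 14.2 and 12.7 in KO_OC. RANKL raised it in flox cells (0.62, edgeR adjusted p = 1.26e-11) and lowered it in KO cells (-0.29, edgeR adjusted p = 0.000692), a difference of -0.91 (SE 0.10, edgeR adjusted p = 7.45e-10). Whether this bears on the 47 genes was not tested.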
